A study of Rattus norvegicus with 13 samples.

Results

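The miRNAs described here are 7 products of the imprinted Dlk1-Dio3 locus that were detected in rat fat: rno-miR-770*, rno-miR-127, rno-miR-434, rno-miR-136, rno-miR-379, rno-miR-494 and rno-miR-376b-3p (written below without rno, which stands for the rat). They were taken by name from the 677 rat miRNAs on the array, as detected miRNAs of that locus, so their being detected over all arrays is part of how they were chosen and is given as a description. The arrays measured miRNAs in fat of female Sprague Dawley rats at 14 weeks of age. In the Control group (7 arrays, animals 622, 627, 631, 656, 658, 662 and 664) the father had eaten chow with 9% as fat, and in the HFD group (6 arrays, animals 619, 620, 624, 629, 660 and 663) the father had eaten pellets with 43% fat. Fathers of both groups were mated at 15 weeks with chow-fed females, and the daughters of both groups were weaned onto chow, so the diet contrast is the father's and not the measured animal's. The labels name no fat depot, litter or father, so daughters of 1 father could not be kept together as a block, and p-values measure the spread between these animals only.

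The Dlk1-Dio3 locus is a block of imprinted genes whose protein-coding members (Dlk1, Rtl1 and Dio3) are read from the paternal chromosome and whose non-coding RNAs, among them Meg3, are read from the maternal chromosome. Its miRNAs are cut from the maternal non-coding RNAs, and one group of them, with miR-127, miR-434 and miR-136, lies antisense to Rtl1 and can pair fully with its transcript. The locus is best known for its high activity in embryo, placenta and brain, and Dlk1 itself is the preadipocyte factor that holds back fat cell differentiation.

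In RefSeq's annotation of the assembly GRCr8, the locus runs on chromosome 6, from the start of Dlk1 at 134192491 to the end of Dio3 at 135108933, which is 916 kb, and the hairpins of all 7 miRNAs lie on the plus strand. The hairpin of miR-770 lies inside the non-coding gene Meg3 (134274056 to 134306249). Those of miR-127, miR-434 and miR-136 lie inside the bounds of Rtl1 (134325231 to 134335780) within 2.88 kb. The hairpins of miR-379, miR-494 and miR-376b start 212 kb downstream of miR-136, within 15.4 kb of each other and outside these 4 genes. The mature sequences are shown because the seed (bases 2 to 8, in capitals) is the part that pairs with a target mRNA, and it tells whether miRNAs of one locus could share targets. The array names carry no sequence, so arms were assigned from the older naming, in which a star marks the lesser strand. RefSeq's table held 6 of the 7.
miR-770-3p: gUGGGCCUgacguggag
miR-127-3p: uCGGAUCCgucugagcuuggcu
miR-434-3p: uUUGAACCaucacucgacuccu
miR-379-5p: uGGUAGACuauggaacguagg
miR-494-3p: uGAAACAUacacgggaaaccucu
miR-376b-3p: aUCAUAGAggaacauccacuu

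The 6 sequences carried 6 different seeds, so no pair of them shared one. The miR-376 family has further copies beside miR-376b, and these are shown because a probe for one copy could meet RNA of another.
miR-376a-3p: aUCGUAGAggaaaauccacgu
miR-376c-3p: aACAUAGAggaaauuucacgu
With positions counted from 1 at the 5′ end and miR-376b-3p as the reference, miR-376a-3p differed by A4G, C13A and U20G and was identical at 18 of 21 bases. miR-376c-3p differed by U2A, C13A, A14U, C16U and U20G and was identical at 16 of 21 bases. A4G and U2A lie in the seed. Cross-hybridisation between the copies was not tested, and the level given for miR-376b-3p is uncertain in that respect.

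Meg3's promoter is shown because Meg3 RNA is the first of the maternal transcripts. Its part in the levels of the miRNAs below was not tested. RefSeq's GRCr8 sequence around the start of Meg3, most of it upstream (chr6:134273806-134274105, plus strand) has the cAMP response element TGACGTCA in capitals.
Meg3 promoter: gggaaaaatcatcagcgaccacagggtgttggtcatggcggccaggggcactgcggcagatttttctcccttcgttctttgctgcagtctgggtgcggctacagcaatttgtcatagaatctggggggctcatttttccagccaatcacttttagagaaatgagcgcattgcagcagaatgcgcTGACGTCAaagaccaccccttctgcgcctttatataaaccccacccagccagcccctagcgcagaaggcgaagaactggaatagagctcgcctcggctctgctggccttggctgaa
This palindromic motif, which reads the same on both strands, occurred once, at position 185 of the window, and 1.83% of 33469 RefSeq promoter windows of this length held it. The letters TATAAA, searched on both strands, occurred 2 times in overlapping places, and 14.2% of the windows held them. These matches describe the letters only.

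Some arrays stood apart in miRNAs of other tissues. Of the 6 miRNAs listed for muscle, 5 were detected on at least 1 array, with the heart's miR-208 on none. Their summed scaled signal was 787% to 1407% on Control 662, Control 664 and HFD 629 and 9.44% to 87.4% on the other 10 arrays. Scaled signal is the background-subtracted signal given as a percent of the 75th percentile that the same array had among those 260 probes that every array detected. Of 10 neural and glial miRNAs listed, 9 were on the array under the listed name. By the call on spots described below, 7 of the 9 were detected, with miR-124 and miR-129, which mark neurons, on none. The looser gene-level call of Feature Extraction found miR-124 on 1 Control and 1 HFD array. The star strands miR-129-1* and miR-129-2*, not listed, were each detected on 1 HFD array. The listed miR-219 is named miR-219-5p on the array and was left out of the sum. It was detected on 0 of 7 Control and 2 of 6 HFD arrays, and by the looser call on 6 and 4. The sum of the 9 was highest on Control 656, HFD 629 and HFD 663 (117% to 151%) and 12.6% to 67.4% elsewhere. All 5 miRNAs listed for fat were detected on all 13 arrays, summing to 1679% on Control 658, where miR-143 alone was at 1378%, and to 506% to 658% on the other 12 arrays, and none of the 5 is made by fat cells alone. The 75th percentile signal ranged from 1546 to 2540 over the arrays, and at most 196 miRNAs were detected on 1 of them.

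Of the locus, few miRNAs were detected in this fat, beside 206 of all 677 miRNAs of the array detected on at least 1 array. The array named 87 miRNAs from a list of the locus, and 9 of them were detected on at least 1 array: the 7 above, miR-487b on all 13 arrays and miR-376a on 1 array. The other 78 were detected on none, nor were 10 further miRNAs that lay in the locus by coordinates alone. A miRNA was called detected where 1 or more of its probes had a share of 0.5 or more of spots well above background. Feature Extraction's own gene-level call, which is looser, detected 14 of the 87, beside 239 miRNAs over the whole array.

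**Figure D1:**
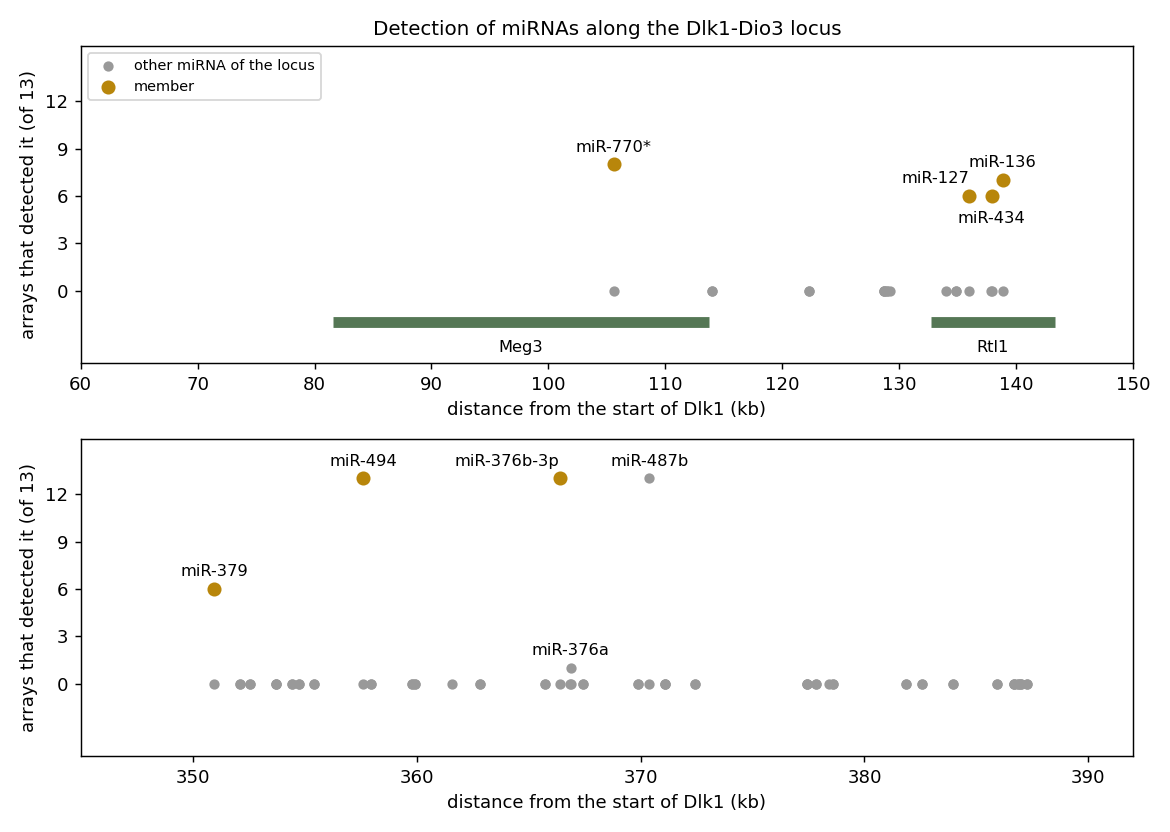
Detection along the locus: the horizontal axis is the distance of each hairpin from the start of Dlk1 in kb, in separate windows for the Meg3 and Rtl1 stretch (upper) and the miR-379 stretch (lower), and the vertical axis is the number of the 13 arrays that detected the miRNA. Gold points are the 7 miRNAs described here, and green bars gene extents. Grey points are other miRNAs of the locus, from the list or placed there by coordinates alone. miR-370, miR-341 and miR-1188 lie between the windows and are not shown. Most grey points sit at 0, with miR-487b at 13 and miR-376a at 1.

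The 7 miRNAs fell into those found on every array and those found on some. miR-494 and miR-376b-3p were detected on all 13 arrays, miR-770* on 8, miR-136 on 7, and miR-127, miR-434 and miR-379 on 6 each. The arrays that detected miR-127, miR-434 and miR-379 were the same 6: Control 631, 656, 662 and 664 and HFD 629 and 663. No other miRNA on the array was detected on exactly these 6. miR-136 was detected on the same 6 and on Control 658. miR-770* was detected on 4 of the 6 and on 4 others. Its detection followed its scaled signal only in part. HFD 620 and HFD 624, its highest arrays, detected it, and Control 627 did not at 1.91%. Control 656 and HFD 663 detected it at 1.36% and 1.37%. miR-379 and miR-136 had such exceptions too. miR-379 was detected on HFD 629 at 1.15% and not on HFD 620 at 1.33%. miR-136 was detected on Control 658 at 1.53% and not on HFD 619 at 1.82%.

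The miRNAs antisense to Rtl1 varied between animals within both groups. For miR-127 (rno-miR-127), which directs cleavage of Rtl1 mRNA, scaled signal in Control ran from 0.936% to 3.67% with a median of 2.25%, and in HFD from 0.331% to 2.72% with a median of 1.51%. Its highest values were on Control 662 (3.67%) and Control 664 (3.50%) and its lowest on HFD 624, and the groups overlapped over most of their range. miR-434 (rno-miR-434), from the neighbouring hairpin, ran from 0.476% to 2.90% in Control (median 1.61%) and from 0.139% to 2.11% in HFD (median 0.959%). It too was highest on Control 664 and 662 and lowest on HFD 624, and the groups overlapped. miR-136 ran from 1.34% to 4.45% in Control (median 2.36%) and from 0.783% to 3.65% in HFD (median 1.68%). Control 662 was again the highest and HFD 624 the lowest, with overlap between the groups. Over all arrays the highest value was 11.1 times the lowest for miR-127, 20.8 times for miR-434 and 5.69 times for miR-136, but the low ends lie under the level at which spots are well above background, so these ratios are imprecise.

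The miRNAs of the downstream stretch differed from each other in spread. miR-379, the first miRNA of that stretch, ran from 0.525% to 2.29% in Control (median 1.35%) and from 0.404% to 1.61% in HFD (median 0.954%), highest on Control 664 and lowest on HFD 624. miR-494 (rno-miR-494) was steady: 17.9% to 20.8% in Control (median 19.6%) and 17.2% to 23.6% in HFD (median 20.6%), a highest value 1.37 times the lowest. miR-376b-3p ran from 3.94% to 4.95% in Control (median 4.37%) and from 3.01% to 6.39% in HFD (median 4.50%). HFD 620 and HFD 624 were above every Control array for miR-376b-3p and HFD 629 below every one, so the HFD values enclosed those of Control.

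miR-770*, from the hairpin inside Meg3, ran from 1.36% to 1.91% in Control (median 1.59%) and from 1.37% to 2.46% in HFD (median 1.59%). HFD 620 and HFD 624, at 2.46% and 2.27%, were the only arrays above the Control range, and the other 4 HFD arrays lay within it. These were also the highest arrays for miR-494 and miR-376b-3p, while HFD 624 was the lowest for miR-127, miR-434, miR-136 and miR-379.

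**Figure D2:**
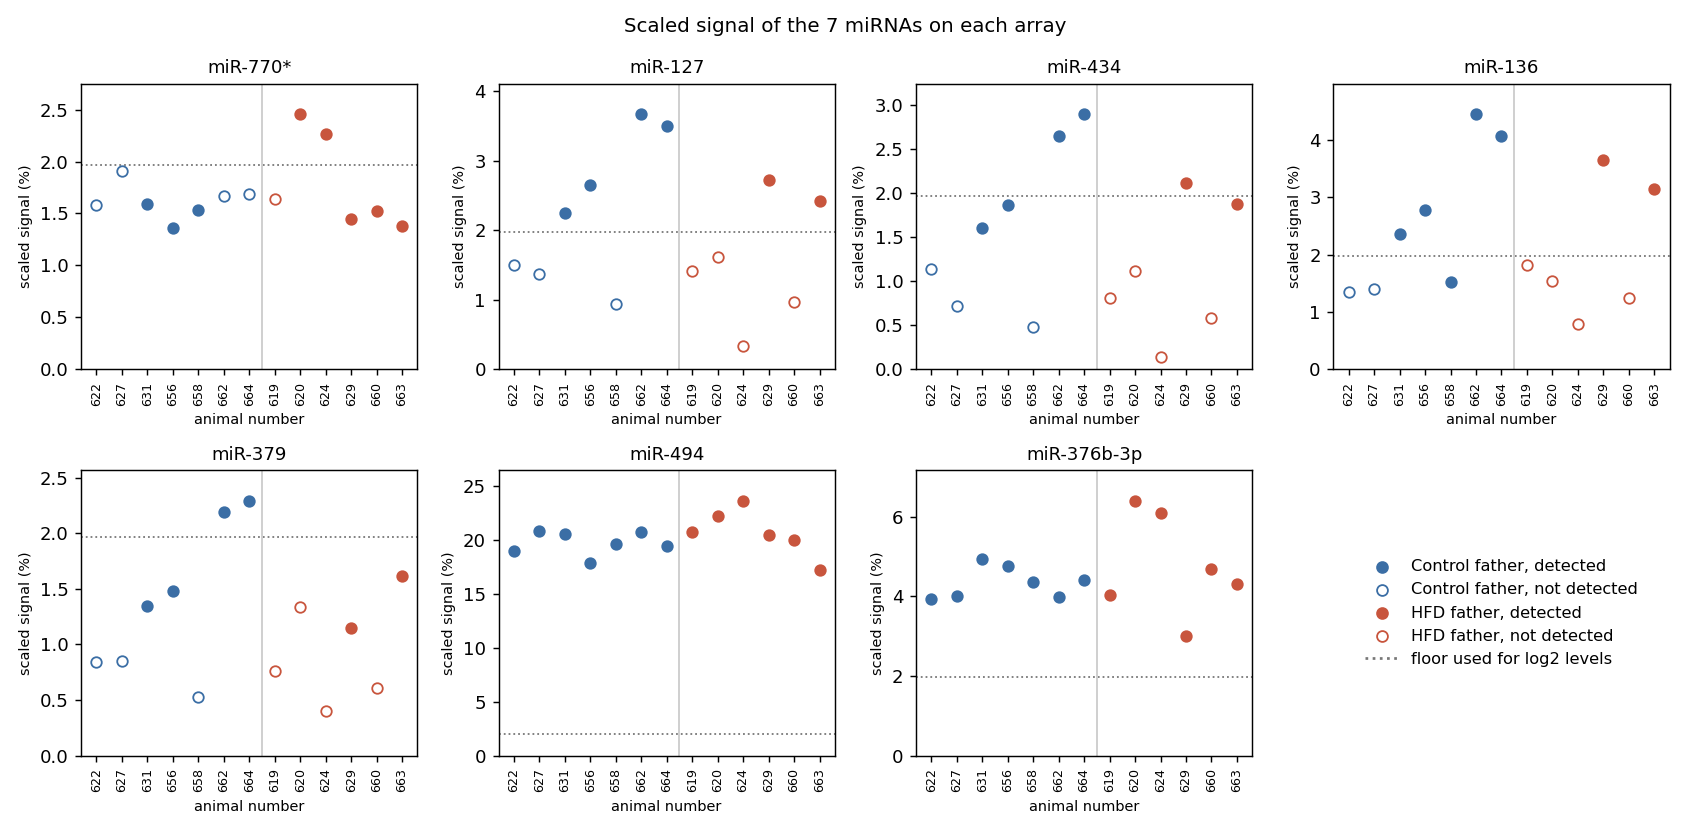
Scaled signal on each array, in percent of the array's 75th percentile, with 1 panel per miRNA on its own vertical scale from 0 and animals on the horizontal axis (7 Control left of the grey line, 6 HFD right of it). Filled points were detected, open points were not, and the dotted line is the floor of 1.97% set for log2 levels. miR-127, miR-434, miR-136 and miR-379 share their high arrays (Control 662 and 664) and their low one (HFD 624).

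Each miRNA was measured by more than 1 probe, and for most of the 7 the probes gave the same order of arrays. Between the 2 probes of each miRNA, Pearson's r over the 13 arrays was 0.993 for miR-136, 0.987 for miR-127, 0.981 for miR-434, 0.975 for miR-379 and 0.969 for miR-376b-3p. It was 0.726 for miR-494 (rho 0.582, adjusted permutation p = 0.0437 for rho). For miR-770* it was 0.648 with rho 0.434 (adjusted permutation p = 0.149 for rho), and r fell to 0.182 without the 2 arrays farthest from the median, so its relation rests on those arrays. All 7 passed by r after Benjamini-Hochberg adjustment, as did 96.2% of the 157 miRNAs with 2 probes. The probes of a miRNA were less alike in level and detection. Those of miR-494 had medians of 2.79% and 37.6%, so its level is a mean of unlike values. The 2 probes were detected on 0 and 6 arrays for miR-379, and on 1 and 8 for miR-770*. They were detected on 3 and 6 for miR-127, 4 and 6 for miR-434 and 5 and 7 for miR-136. Both probes of miR-494 and of miR-376b-3p were detected on all 13.

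The comparison of the father's diets asked whether these miRNAs differed in daughters' fat. None of the 7 passed the test in either direction, and no other tested miRNA did. Log2 levels had a floor at 1.97% of the 75th percentile (log2 -5.67), and limma was fitted over the 176 miRNAs detected on at least 6 arrays, with Benjamini-Hochberg adjustment over all of them. In limma 0 of 176 miRNAs passed at an adjusted p below 0.05, higher in HFD (0%) or lower (0%). At an unadjusted p below 0.05, 1 miRNA was higher (0.568%) and 1 lower (0.568%), neither of them among the 7.

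For the Rtl1-antisense group the HFD minus Control difference in log2 level was -0.18 ± 0.15 (SE, 7 against 6 arrays, limma adjusted p = 0.965) for miR-127, -0.10 ± 0.093 (limma adjusted p = 0.965) for miR-434 and -0.14 ± 0.22 (limma adjusted p = 0.981) for miR-136. The 95% intervals were -0.52 to 0.15, -0.31 to 0.099 and -0.62 to 0.34. miR-379 differed by -0.080 ± 0.060 (limma adjusted p = 0.965), with an interval of -0.21 to 0.049. Since these 4 were at the floor in many arrays (miR-127 and miR-136 on 5 arrays, miR-434 on 7 and miR-379 on 10), the differences understate any difference among dim values. These counts hold only arrays with both probes at the floor. The dimmer probe of each also had its median under the floor: 0.994% for miR-127, 0.910% for miR-434, 1.33% for miR-136 and 0.697% for miR-379. With a floor 4 times lower, the difference of miR-127 was -0.52 ± 0.41, that of miR-434 -0.47 ± 0.44, that of miR-136 -0.37 ± 0.40 and that of miR-379 -0.41 ± 0.35, each with a limma adjusted p of 0.966 and intervals reaching from -1.16 or lower to 0.35 or higher.

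The floor did not touch miR-494 and miR-376b-3p, which were above it on every array. miR-494 differed by 0.082 ± 0.070 (limma adjusted p = 0.965), with an interval of -0.070 to 0.23, which as a fold is 0.953 to 1.18. miR-376b-3p differed by 0.088 ± 0.15 (limma adjusted p = 0.983), with an interval of -0.24 to 0.42, or 0.847-fold to 1.33-fold. miR-770*, at the floor on 9 arrays, differed by 0.082 ± 0.053 (limma adjusted p = 0.965; interval -0.032 to 0.20). Of the 7 differences 3 were above 0 and 4 below, with a median of -0.080, beside 51.7% above 0 and a median of 0.0028 over the 176. The median of the 7 turned to 0.032 within slide 1 and to 0.0060 without the 3 muscle-rich arrays.

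**Figure D3:**
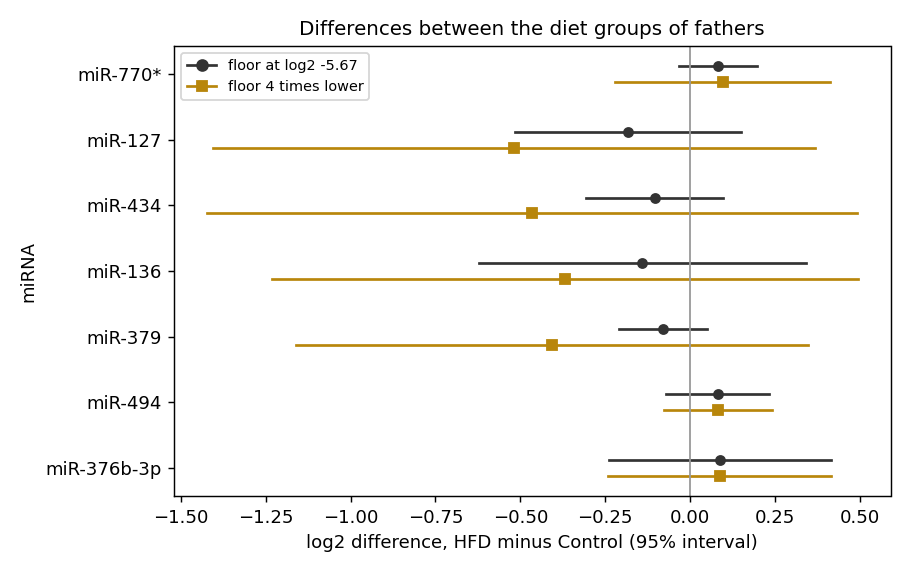
HFD minus Control difference in log2 level (horizontal axis) for each of the 7 miRNAs, with the 95% interval of the limma fit, at the floor of log2 -5.67 (dark circles) and at a floor 4 times lower (gold squares). Every interval crosses 0. Lowering the floor widens the intervals of miR-127, miR-434, miR-136, miR-379 and miR-770* (to -0.22 to 0.41 for miR-770*). It leaves those of miR-494 and miR-376b-3p nearly as they were.

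The arrays lay on 2 slides, each with both groups, and the differences were computed within each. On slide 1 (4 Control, 4 HFD) the difference was 0.0079 for miR-127, 0.041 for miR-434, 0.17 for miR-136 and 0.0046 for miR-379. On slide 2 (3 Control, 2 HFD) it was -0.47, -0.31, -0.62 and -0.19. The change of direction was not called: limma's slide interaction gave adjusted p = 0.455, 0.255, 0.341 and 0.317 for these 4, and across all 176 miRNAs it called 1 (0.568%), the red blood cell miRNA miR-451. Both slide 2 Control arrays with the highest levels of these miRNAs, 662 and 664, were also rich in muscle miRNAs. Without the 3 muscle-rich arrays the difference was -0.065 ± 0.11 for miR-127, -0.0023 ± 0.041 for miR-434, 0.0060 ± 0.14 for miR-136 and 0.0037 ± 0.024 for miR-379.

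The number of arrays that detected each miRNA was compared too, though this design could not call 1 miRNA alone: the smallest Fisher's exact p for 7 against 6 arrays is 0.000583, which is 0.12 after adjustment over 206 miRNAs. miR-127, miR-434 and miR-379 were each detected on 4 of 7 Control arrays and 2 of 6 HFD arrays (Fisher's exact test, two-sided, p = 0.592, adjusted p = 1). miR-136 was detected on 5 of 7 and 2 of 6 (Fisher's exact p = 0.286, adjusted p = 1). miR-770* ran the other way, with 3 of 7 and 5 of 6 (Fisher's exact p = 0.266, adjusted p = 1). Over the 206 miRNAs detected on any array 0% were called.

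Across animals, miR-127, miR-434 and miR-136 moved together, and miR-379 was called with them only with a lower floor or none. On the planned log2 scale miR-379 had r = 0.931 with miR-434 (adjusted permutation p = 0.0622). With miR-127 it had r = 0.796 (adjusted permutation p = 0.116). On the log2 scale with its floor only 1 pair, miR-494 with miR-376b-3p, was above the floor on at least 10 arrays in both members. Its r was 0.278 (permutation p = 0.362, adjusted over 15400 pairs of tested miRNAs to 0.703) and its rho 0.181, and r was 0.077 without the 2 farthest arrays. The other 20 pairs had members at the floor on more arrays. Over all 21 pairs, 3 were called above 0, the 3 among miR-127, miR-434 and miR-136, beside 1.03% of all 15400 pairs, and none below 0, beside 0.0844%. With the floor 4 times lower, 6 of 21 were called above 0, beside 0.903%.

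Scaled signal without a floor, a scale chosen after the data had been seen, keeps the order of the dim values. On it miR-127 and miR-434 had r = 0.989 and rho = 0.984 over the 13 arrays. miR-127 with miR-136 had r = 0.964 and rho = 0.929, and miR-434 with miR-136 had r = 0.958 and rho = 0.912. miR-379, whose hairpin lies 212 kb from that of miR-136, had r = 0.944 with miR-127 (rho 0.918), 0.944 with miR-434 (rho 0.912) and 0.884 with miR-136 (rho 0.857). The adjusted permutation p was 0.0216 for miR-136 with miR-379 and 0.00467 for the other 5 pairs by r, and 0.0118 to 0.0457 by rho. In all, 7 of the 21 pairs were called above 0, beside 1.02% of all pairs, and none below 0, beside 0.104%.

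These 6 pairs kept a positive r in each subset of arrays that was tried. Without Control 662 and 664, the arrays farthest from the median of miR-127, miR-434 and miR-136, r was 0.748 to 0.987. Without the 3 muscle-rich arrays it was 0.862 to 0.984. Without the 3 arrays of highest miR-338 it was 0.940 to 0.989. It was 0.844 to 0.988 on slide 1 and 0.912 to 0.991 on slide 2 (5 arrays). Within Control it was 0.952 to 0.992 and within HFD 0.714 to 0.993.

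miR-494 and miR-376b-3p, 6.67 kb and 15.4 kb from miR-379, were not among the miRNAs that moved with it. miR-379 had r = -0.337 with miR-494 (rho -0.368) and -0.142 with miR-376b-3p (rho -0.0769), with adjusted permutation p = 0.613 and 0.863. Between miR-127 and miR-494 r was -0.414 (adjusted permutation p = 0.511), and between miR-127 and miR-376b-3p -0.403 (adjusted permutation p = 0.525). By position, the 3 pairs inside Rtl1 had r of 0.958 to 0.989 and the 3 pairs in the downstream stretch -0.337 to 0.497. A difference between the 2 stretches was not tested.

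miR-770* had its highest r with miR-494 (0.825, adjusted permutation p = 0.0415; rho 0.797, adjusted permutation p = 0.118). Without HFD 620 and HFD 624 that r was 0.682. With miR-376b-3p its r was 0.739 (adjusted permutation p = 0.161), which became -0.0914 without the same 2 arrays and so rests on them. With miR-127 its r was -0.390 and with miR-434 -0.382. miR-487b, the other miRNA of the locus found on all arrays, had r = 0.615 with miR-376b-3p (adjusted permutation p = 0.251) and -0.157 with miR-127.

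**Figure D4:**
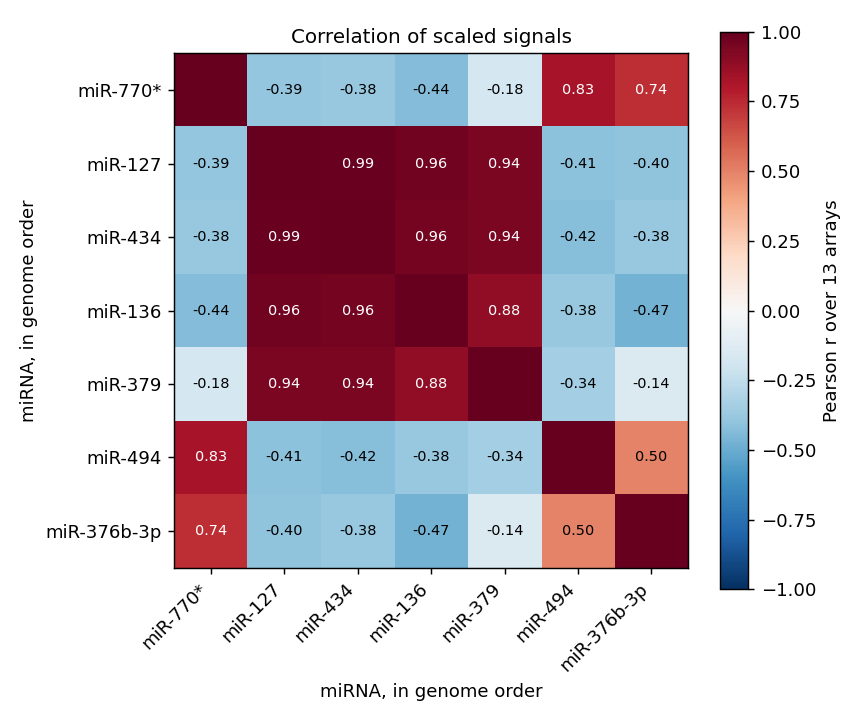
Pearson's r between the scaled signals of each pair of the 7 miRNAs over the 13 arrays, in genome order on both axes, from blue (-1) to red (1). miR-127, miR-434, miR-136 and miR-379 form a block from 0.88 to 0.99, while miR-770*, miR-494 and miR-376b-3p have r of 0.50 to 0.83 with each other and values below 0 with that block.

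Among the 176 tested miRNAs, the 3 most like each of miR-127, miR-434 and miR-379 on the unfloored scale were the others of this block of 4. On the planned log2 scale, where these miRNAs are at the floor on many arrays, miR-139-3p was the most like miR-379 (0.998, not called) and came second for miR-434 (0.930, not called), and miR-128 was next after miR-136 and miR-434 for miR-127 (0.828, not called). For miR-136 the third place on the unfloored scale went to miR-128, of the neural and glial list, with r = 0.892 (adjusted permutation p = 0.0135). On that scale miR-494 was most like miR-652* (0.836), miR-770* (0.825) and miR-708 (0.753), and miR-376b-3p most like miR-350 (0.841), miR-551b* (0.824) and miR-708 (0.822). On the log2 scale with its floor, the 3 most like miR-494 were miR-652*, miR-339-3p and miR-290 (r 0.701 to 0.766), and those of miR-376b-3p were miR-425, miR-708 and miR-103 (r 0.759 to 0.788), none of them called.

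Of the listed muscle and neural miRNAs, 3 and 4 were tested, and on the unfloored scale only miR-128 was called with any miRNA of the block. The muscle miRNA miR-1 had r = 0.697 with miR-127, 0.699 with miR-434, 0.792 with miR-136 and 0.540 with miR-379 (adjusted permutation p = 0.158, 0.156, 0.0937 and 0.326). Without the 3 muscle-rich arrays these were -0.176, -0.248, -0.0259 and -0.295. Leaving those arrays out also narrows the range of miR-1, from 2.69% to 708% over all arrays to 2.69% to 43.7%. miR-128 had r = 0.823 with miR-127 (adjusted permutation p = 0.0406), 0.847 with miR-434 (adjusted permutation p = 0.033) and 0.675 with miR-379 (adjusted permutation p = 0.186). Without the muscle-rich arrays these were 0.765, 0.806 and 0.732. Though listed as neural, miR-128 was highest on the 3 muscle-rich arrays: HFD 629 (4.15%), Control 664 (3.60%) and Control 662 (3.59%). On HFD 663 and Control 656, which like HFD 629 had high neural sums, it was at 3.08% and 2.71%. The other muscle miRNAs, miR-133b and miR-499, had r = 0.683 and 0.489 with miR-127, which were -0.225 and -0.362 without the muscle-rich arrays. The other neural and glial miRNAs did not share one direction: with miR-127, miR-338 had r = 0.390, miR-204 had 0.268 and miR-7a had -0.250, which were 0.708, 0.537 and -0.686 without the muscle-rich arrays. The summed muscle list ranged from 10.2% to 1204% in Control and from 9.44% to 1407% in HFD, and the neural list from 19.4% to 135% and from 12.6% to 151%. The part of muscle, nerve or other cells in the block's levels was not tested, and in whole tissue a different share of cells and a different amount of RNA per cell cannot be told apart.

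**Figure D5:**
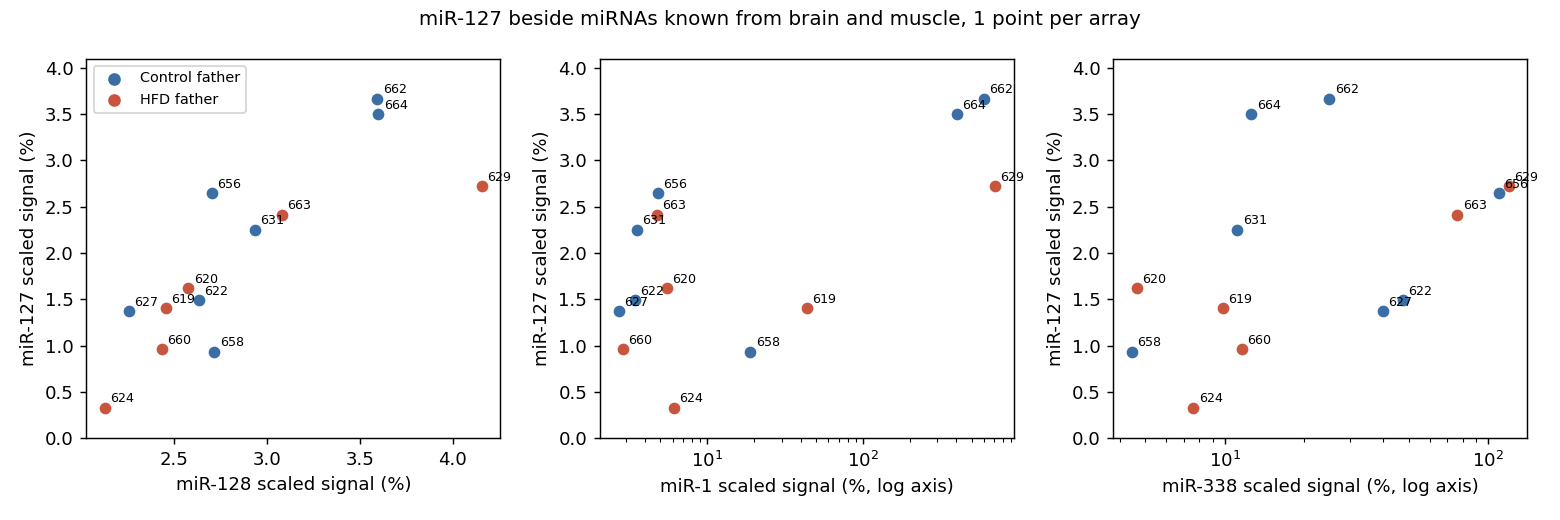
Scaled signal of miR-127 (vertical axis, percent) against that of miR-128, miR-1 and miR-338 (horizontal axes, percent; log axes for miR-1 and miR-338), with 1 point per array labelled by animal number, Control in blue and HFD in red. miR-127 is on the whole higher where miR-128 is higher, though Control 656 and Control 658 differ in miR-127 at close to the same miR-128 and HFD 629 has the highest miR-128 and not the highest miR-127. For miR-1 Control 662, Control 664 and HFD 629 stand apart on the right and the other arrays show no rise.

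The brightness of the arrays was compared with the members as well. With the array's 75th percentile signal, r was 0.424 for miR-127, 0.448 for miR-434, 0.533 for miR-136 and 0.214 for miR-379 (adjusted permutation p = 0.402, 0.401, 0.283 and 0.670). For miR-770* it was -0.631 (adjusted permutation p = 0.175), for miR-494 -0.331 and for miR-376b-3p -0.428. Their rho was -0.747 (adjusted permutation p = 0.0695), -0.500 and -0.159. Scaled signal is divided by this same percentile, and its part in the correlation of miR-770* with miR-494 was not tested. None of the 7 was called, beside 1.14% of the 176 above 0 and 6.25% below 0. With the number of miRNAs detected on the array none of the 7 was called either, beside 0% in both directions. For miR-770* rho with that number was -0.726 (adjusted permutation p = 0.0746).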

How the data were processed

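Labelled RNA (100 ng of total RNA with Cy3) was read on 13 single-colour Agilent arrays, and the deposited intensity values, per the file headers, were extracted with Feature Extraction 10.7.3.1 on a grid for rn4. The processed signal had been background-subtracted and not normalized between arrays. The deposited value table is in log2 and held 2569 values, of which 2544 were within 0.001 of log2 of the total gene signal in the deposited gene-level files. Per the submitters' processing notes RMA and Partek were used, with no role or version given.

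Spots without an outlier flag, control spots left out, were averaged per probe (1644 probes), scaled to the 75th percentile of the 260 probes that every array detected, floored, taken to log2 and averaged over a miRNA's probes. limma 3.58.1 (R 4.3.3) tested HFD against Control, two-sided, without covariates. Correlations and permutation tests (100000 resamples, two-sided, smallest p 1e-05) used numpy 2.4.6 and scipy 1.17.1. The limma and correlation steps were tested on simulated data. No depth exists for arrays, and their number limits the precision. The planned normexp alternative (offset 50) used the median spot signal, since a mean column is not in the files used here. Coordinates and sequences are RefSeq's (GRCr8). The rn4 grid was used for names only.

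The miRNAs named are the 7, others of the locus detected on at least 1 array, the 3 with highest r to a member above the floor on at least 10 arrays (miR-494 and miR-376b-3p; the others' were added after their values were seen) and markers that moved with a member. Lists for red and white blood cells, endothelium, epithelium and liver were also summed: red blood cell miRNAs reached 177% to 706%, white blood cell 180% to 342%, endothelium 301% to 391%, epithelium 22.7% to 35.4% and liver 0.385% to 20.7%. The members and lists were chosen with earlier results of these data known.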

Additional observations from a re-analysis of the deposited data

Results flagged for a closer look

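The level of miR-770* on Control 627 was -5.59 in log2, apart from the other 6 Control arrays, which were all at the floor of -5.67. The level of miR-379 on HFD 663 was -5.65, with the other 5 HFD arrays at the floor. Both stood out because every other array of the group had the floor value, so the gap equals the whole range. On the scale without a floor neither stood apart. Of 28 groups of values checked 2 stood out. The rule's chance rate of about 1 in 20 is meant for values without a floor. It does not apply to these 2, whose groups have a single value off the floor.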

How the results depend on the processing

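limma called no miRNA under any of the 32 settings, and the lowest adjusted p of the 7 was 0.450. The median difference of the 7 (-0.080 as reported) was below 0 in 26 of the 30 alternatives that gave one and ran from -0.37 with the floor 4 times lower to 0.090 on the deposited values. It was also above 0 within slide 1 (0.032), without the 3 muscle-rich arrays (0.0060) and over the 2 miRNAs detected on all 13 arrays (0.085). Leaving out 1 array it ran from -0.094 to -0.022. miR-770* and miR-494 kept their direction under each alternative that gave a value. The others turned in places. Within slide 1 the difference was 0.0079 for miR-127, 0.041 for miR-434, 0.17 for miR-136, 0.0046 for miR-379 and -0.0033 for miR-376b-3p. Without the 3 muscle-rich arrays it was 0.0060 for miR-136 and 0.0037 for miR-379, and that of miR-434 was 0.48 on the deposited values. The deposited values of miR-434 come only from the 5 Control and 2 HFD arrays where the gene-level call detected it, so its low arrays are missing there. Leaving out 1 array gave -0.0070 to 0.21 for miR-376b-3p. The cause was not tested. The median r of the 21 pairs was 0.011 as reported, -0.36 with the percentile over all probes, -0.084 with the median as scale, -0.43 after quantile normalization, 0.39 after normexp and 0.45 on the deposited values. It was -0.17 with a floor 4 times lower, -0.17 with the brightest probe, -0.18 with total gene signal and -0.18 without a floor. Without the muscle-rich arrays it was -0.091, without the 3 arrays of highest miR-338 0.10, after group means 0.12, after slide means -0.12, and leaving out 1 array -0.040 to 0.098. The number of called pairs was 3 as reported, 6 with the lower floor and 7 without a floor. With a floor 4 times higher 6 of the 7 miRNAs were at the floor on every array, and that setting gave no correlation. With detection required on all 13 arrays only miR-494 and miR-376b-3p remained. The normexp column, the linear scale, the miR-338 subset and a block for the range of animal numbers were chosen after seeing the data. No paired analysis was possible because the animal numbers in the labels all differ. The signal over background limits miR-127, miR-434, miR-136, miR-379 and miR-770*, all of them at the floor on at least 5 arrays.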
